A study of Mus musculus with 12 samples.

Results

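The 33 mouse genes described here encode enzymes and transporters of glycolysis and classical targets of the hypoxia-inducible factors (HIF). They were taken by symbol from a table of 55401 genes. Each of the 33 symbols was found through its Ensembl identifier, on 34 rows. Aldoa, the main aldolase, had another identifier with at most 5.36 normalized counts, which was not used further. Their RNA was measured in living CD45+ CD11c+ cells sorted from B16-OVA tumours, which grow from a mouse melanoma line carrying chicken ovalbumin as a model antigen. CD45 marks white blood cells, and CD11c is an integrin subunit found on dendritic cells and many macrophages.

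There were 4 groups of 3 libraries, all from mice labelled WT. The fusion protein group received 20 mcg of a fusion protein on day 10 of tumour growth and 10 mcg on day 14. The 20 Gy group was irradiated with 20 Gy on day 10, the combined group received radiation and fusion protein, and the untreated group received neither. All tumours were collected on day 17, which is 7 days after the first treatment. What the fusion protein consists of, the sex and age of the mice and whether each library is from its own mouse are not stated in the sources used. The p-values therefore measure the spread between these libraries, which may be partly technical. Values below are the authors' normalized counts, read counts divided by a size factor for each library. In these sorted mixtures fewer cells of a type and less RNA per cell cannot be told apart.

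The libraries held 14462032 to 23985496 reads assigned to genes, with a read in 22100 to 43326 genes each. Ptprc, which encodes CD45, had 30925 to 53839 normalized counts, and Itgax, which encodes CD11c, had 2226 to 9497, so both sorting markers were present in every library. Of 1451 receptor genes that white blood cells do not use, 84.4% and 63.7% had a read in libraries 1 and 2 of the 20 Gy group and 63.4% in combined library 1, against 5.38% to 44.5% in the other 9. Library 3 of each group stood apart in its melanoma transcripts, as given below.

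Glycolysis splits glucose into pyruvate in the cytosol. Lactate dehydrogenase turns pyruvate into lactate, which monocarboxylate transporters carry out of the cell. When oxygen is plentiful, prolyl hydroxylases mark the HIF alpha subunit for degradation. When oxygen is scarce, HIF accumulates and raises transcription of genes for most glycolytic steps, of the hydroxylases themselves and of genes for blood vessel growth, pH control and mitophagy. Dendritic cells and macrophages also use glycolysis heavily after activation.

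Enzymes of the lower glycolytic pathway led the list, though not all of them. On the scale of normalized counts per kb of exon, the median over 12 libraries was 1260 for Pkm (pyruvate kinase), 1230 for Gapdh (glyceraldehyde phosphate dehydrogenase), 1180 for Aldoa and 1090 for Ldha (lactate dehydrogenase). The ranges of these genes over the libraries overlapped, so their order is not firm. Hif1a, the oxygen-regulated HIF subunit, stood at 451 per kb, with its relative Epas1 at 10.3 per kb. The glucose transporter Slc2a1 stood at 257 per kb, the related transporter Slc2a3 at 141 per kb and the lactate exporter Slc16a3 at 72.5 per kb. At the low end were Egln3, a HIF prolyl hydroxylase, at 19.7 per kb, Adm, a vessel-dilating peptide, at 17.4 per kb and Car9, a surface carbonic anhydrase, at 12.9 per kb. Of the other lower-pathway enzymes, Pgam1 at 242 per kb, Tpi1 at 222 per kb and the other aldolase Aldoc at 26.4 per kb were below the upper-pathway isomerase Gpi1 at 624 per kb. For hexokinases, Hk1 at 238 per kb, Hk2 at 222 per kb and Hk3 at 136 per kb lay within each other's ranges. Gapdh, Eno1, Aldoa and Pgk1 have near-identical copies in the genome, so their reads may be shared. The copies named in the annotation were low, with at most 18.7 normalized counts for Eno1b, 20.9 for Aldoart1 and 1.7 for Pgk1-rs7.

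**Figure D1:**
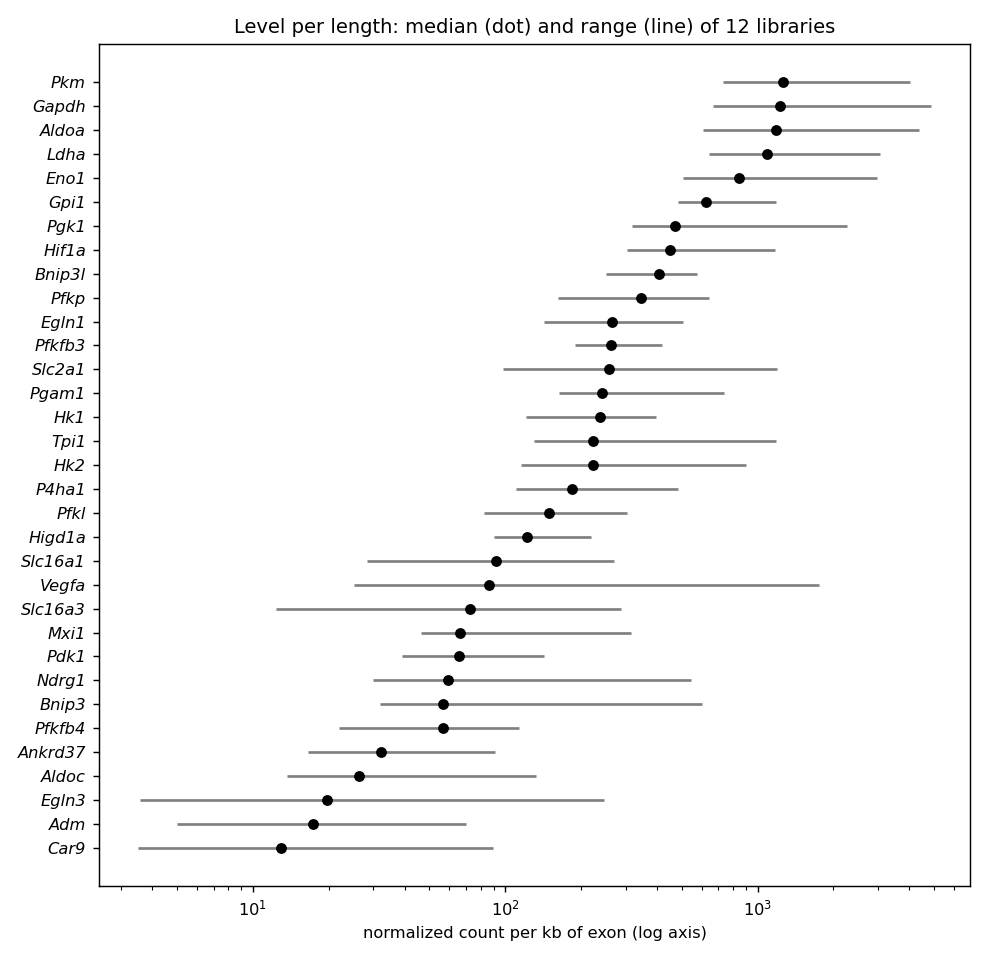
Normalized counts per kb of exon (log axis) for the 33 genes, ordered by the median over 12 libraries. Dots are medians and lines run over the range of all libraries; Pkm, Gapdh, Aldoa and Ldha lead, and Egln3, Adm and Car9 are lowest.

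All 33 genes passed the filter on low values. None was called at an adjusted p under 0.05 in any of 8 comparisons fitted with limma across 18274 genes. The share of all tested genes called was 0.744% for fusion protein against untreated, 0.0% for 20 Gy against untreated, 1.4% for combined against untreated, 1.03% for combined against 20 Gy and 0.0% for combined against fusion protein. It was 3.29% for the main effect of the fusion protein (6 libraries with it against 6 without), 0.0% for the main effect of radiation (6 irradiated against 6 not) and 0.0% for the interaction of both treatments. At these shares a count of 0 among 33 genes is near the background. At an unadjusted p under 0.05 the limma fits had 1 member each in combined against untreated, combined against 20 Gy and the main effects of the fusion protein and of radiation, and 0 in the other 4 comparisons. The member was Bnip3l in the first 3 of these and Pfkfb4 in the last. Over all genes the share under that unadjusted p was 8.41% (fusion protein), 6.74% (20 Gy) and 12.5% (combined) against untreated, 8.99% for combined against 20 Gy, 2.92% for combined against fusion protein, 14.5% and 10.5% for the main effects of the fusion protein and of radiation, and 1.03% for the interaction. The members' share, 0 or 1 of 33, was below that of all genes in each of the 8.

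The edgeR quasi-likelihood test called 0 of the 33 in all 8 comparisons. Of all genes it called 0.602% for fusion protein against untreated, 1.09% for combined against untreated, 0.832% for combined against 20 Gy, 3.22% for the main effect of the fusion protein and 0.0% in the other 4. DESeq2 called 1 of the 33, Bnip3l, in the main effect of the fusion protein, where it called 7.33% of all genes. It called 0 members in the other 7 comparisons. Its shares of all genes there were 2.54% (fusion protein), 0.246% (20 Gy) and 4.13% (combined) against untreated, 3.01% for combined against 20 Gy, 0.0% for combined against fusion protein, 0.558% for the main effect of radiation and 0.00547% for the interaction.

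**Figure D2:**
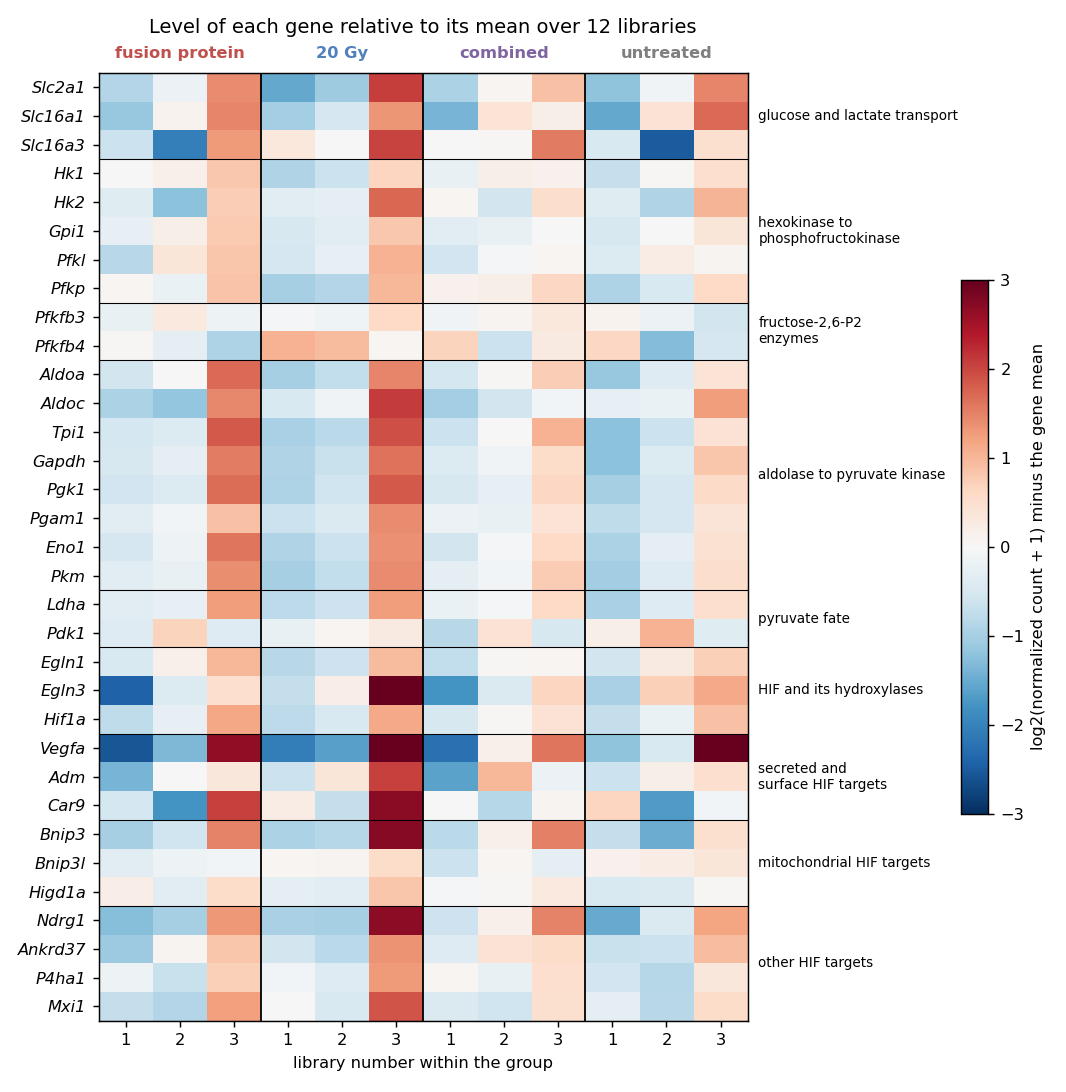
Log2 level of each gene minus its mean over 12 libraries, with genes in rows by role and libraries in columns by group. Red is above the gene's mean and blue below, and differences past 3 are drawn as 3. The column of library 3 is the reddest in each of the 4 groups, and its red is paler in the combined group than in the 20 Gy group.

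Most of these genes differed between the libraries of each group in the same way. In 24 of 33 genes, or 72.7%, library 3 was the highest of its group in all 4 groups, a pattern found in 13.2% of all tested genes. Library 1 was highest in all 4 groups for 9.4% of all genes and library 2 for 4.38%. The replicate number comes from the labels, which do not say what it marks. The median member was higher in library 3 than the mean of libraries 1 and 2 by 1.65 on the log2 scale in the fusion protein group, 2.02 in the 20 Gy group, 0.67 in the combined group and 1.19 in the untreated group. Over all tested genes these medians were 0.03, −0.06, 0.04 and 0.03. The 33 genes took 0.409% to 0.647% of reads in the 4 libraries numbered 3 and 0.207% to 0.296% in the other 8.

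Vegfa, the main growth factor for blood vessels (GRCm38 chromosome 17, 46016993 to 46032369), had the widest gap of the 33. It had 108, 252 and 4048 normalized counts in fusion protein libraries 1, 2 and 3, 150.5, 206 and 7532 after 20 Gy, 135, 716 and 1941 in the combined group and 275, 464 and 7480.5 in the untreated group. Library 3 was 4.56-fold (combined) to 42.3-fold (20 Gy) above the mean of the other 2 libraries of its group. Its main effects were a log2 difference of −0.57 ± 1.28 (SE) for the fusion protein and −0.21 ± 1.28 for radiation. Each was smaller than its SE, which holds the spread between library numbers. In fusion protein against untreated Vegfa was lower in 3 of 3 pairs of the same number, with a log2 difference of −1.035. With the library number fitted as a block the SE of that difference was 0.485 (limma adjusted p = 0.33). Ndrg1, a stress-response protein, was 2.50 higher in library 3 on the log2 scale as a mean of 4 groups, and Bnip3, a mitophagy receptor, was 2.33 higher. Ndrg1 had 232, 285 and 1399 normalized counts with the fusion protein, 287, 282 and 3607 after 20 Gy, 365, 624 and 1585 in the combined group and 198, 421 and 1284 untreated. For both genes library 3 lay above libraries 1 and 2 in every group.

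Slc2a1, the main glucose importer, had 543, 874 and 2645 normalized counts in fusion protein libraries 1, 2 and 3, 343, 478 and 4223 after 20 Gy, 513, 1036 and 1832 in the combined group and 434, 926 and 2771 in the untreated group. Ldha had 3398, 3534 and 10098 normalized counts with the fusion protein, 2438, 2726 and 10055 after 20 Gy, 3702, 4055 and 6344 in the combined group and 2136, 3241 and 5939 untreated. Hif1a itself had 1841, 2610 and 6884 normalized counts with the fusion protein, 1786, 2253 and 6863 after 20 Gy, 2205, 3176 and 4177 in the combined group and 1884, 2706 and 5728 untreated. In these 3 genes library 3 was the highest of every group, and the combined group had the lowest or next to lowest value among the 4 libraries numbered 3. All 7 lower-pathway enzymes other than Aldoc, from Aldoa to Pkm, were 1.16 (Pgam1, phosphoglycerate mutase) to 1.98 (Tpi1, triosephosphate isomerase) higher in library 3 as a mean of 4 groups, and Aldoc was 1.76 higher.

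A few members did not share the pattern. Pdk1, the kinase that holds pyruvate back from the mitochondria, had 414, 852 and 415 normalized counts in fusion protein libraries 1, 2 and 3, 463, 563 and 653 after 20 Gy, 305, 735 and 386 in the combined group and 613, 1112 and 417 in the untreated group. Library 2 was its highest in 3 of the groups. Pfkfb3 and Pfkfb4, which set the level of the sugar phosphate that activates phosphofructokinase, differed on average by 0.07 and −0.41 between library 3 and the others. Bnip3l, another mitophagy receptor, differed by 0.21.

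**Figure D3:**
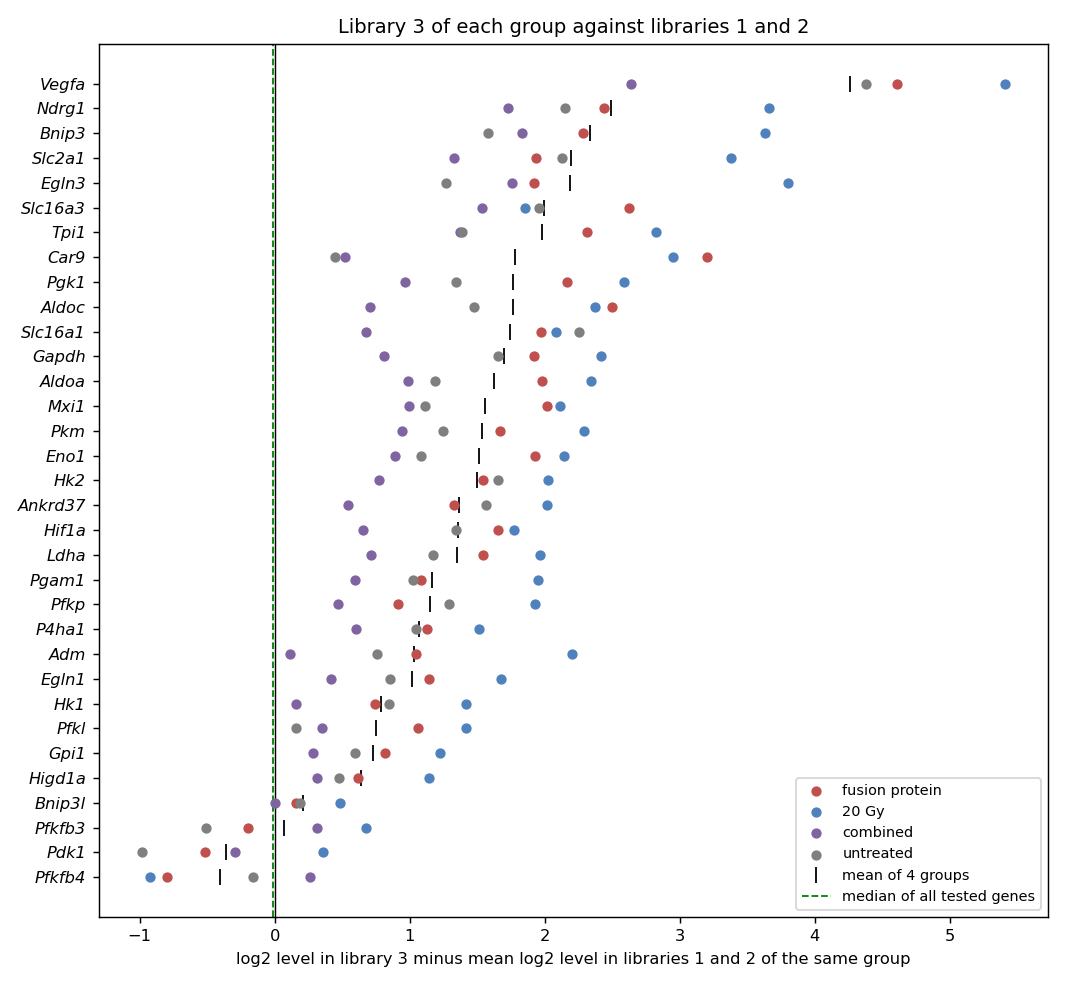
Log2 level in library 3 minus the mean log2 level in libraries 1 and 2 of the same group, for each gene and group (coloured points) with the mean of 4 groups (black ticks). The dashed line is the median of all tested genes; Vegfa, Ndrg1 and Bnip3 lead, and Pdk1 and Pfkfb4 lie below 0 on average.

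Other transcripts differed between the same libraries. The summed level of the melanoma markers was 4924, 16591, 1397 and 1940 normalized counts in library 3 of the fusion protein, 20 Gy, combined and untreated groups and 137 to 447 in the other 8 libraries. All 10 markers were in the table, 9 passed the filter, all 9 were highest in library 3 of every group, and Gpr143 was at 0 in all untreated libraries. B and plasma cell markers moved the other way, with sums of 261 to 3222 in the libraries numbered 3 and 5946 to 18772 in the other 8. Of 34 other genes of the hypoxia response, 15 (44.1%) were highest in library 3 of all 4 groups, while 3 of 22 other genes of glycolysis and pyruvate use (13.6%) were, near the share of all genes. Bhlhe40, a HIF-responsive repressor named after its values were seen, had 37124, 34039, 16104 and 50629 normalized counts in library 3 of the fusion protein, 20 Gy, combined and untreated groups, and 3565 to 8516 in the other 8 libraries. The part of tumour cells, of B cells or of hypoxia in the values of library 3 was not tested.

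Sequence at the gene starts was read because so many of the 33 genes differed together between libraries. RefSeq promoter windows of build GRCm38.p6, 300 bases each, matched 31 of the 33 genes in 44 windows. HIF binds the core letters ACGTG or GCGTG. This core was present on either strand in 36 of the 44 windows (81.8%) and in 43.8% of 32851 windows of all genes. ACGTG alone was in 59.1% of the members' windows and 19.6% of all. By gene, 29 of 31 members (93.5%) and 46.7% of all genes had the core in at least 1 window. A match is a run of letters and not a shown binding site. Many of the 33 genes were chosen as known HIF targets, so a larger share with the core can follow from that choice. The windows of all genes were not matched to the members for base content. What the core has to do with the differences between libraries was not tested. Below are 4 windows, written 5′ to 3′ on the gene's strand with the core or its reverse complement in capitals, for 2 transporters, an enzyme and a hydroxylase that the results turn on. They are Slc16a3 (chr11:120948817-120949116, plus strand), Ldha (chr7:46845554-46845853, plus strand), Slc2a1 (chr4:119108495-119108794, plus strand) and Egln3 (chr12:54203825-54204124, minus strand).
Slc16a3: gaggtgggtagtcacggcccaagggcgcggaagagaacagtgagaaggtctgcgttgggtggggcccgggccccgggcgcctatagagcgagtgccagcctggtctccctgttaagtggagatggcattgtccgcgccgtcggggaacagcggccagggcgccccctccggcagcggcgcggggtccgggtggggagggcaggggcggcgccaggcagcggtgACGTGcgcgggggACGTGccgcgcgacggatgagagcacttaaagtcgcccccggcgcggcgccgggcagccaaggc
Ldha: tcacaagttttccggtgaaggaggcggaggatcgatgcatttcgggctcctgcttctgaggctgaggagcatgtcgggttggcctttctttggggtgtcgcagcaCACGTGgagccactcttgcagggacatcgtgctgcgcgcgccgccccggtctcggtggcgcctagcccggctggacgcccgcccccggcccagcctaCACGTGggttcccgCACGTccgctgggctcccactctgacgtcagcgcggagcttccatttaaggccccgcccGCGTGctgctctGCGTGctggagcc
Slc2a1: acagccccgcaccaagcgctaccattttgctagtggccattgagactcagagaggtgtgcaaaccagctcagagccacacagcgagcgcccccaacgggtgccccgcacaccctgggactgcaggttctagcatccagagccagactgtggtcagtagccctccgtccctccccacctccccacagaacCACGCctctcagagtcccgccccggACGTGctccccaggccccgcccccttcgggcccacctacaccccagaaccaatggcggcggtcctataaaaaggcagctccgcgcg
Egln3: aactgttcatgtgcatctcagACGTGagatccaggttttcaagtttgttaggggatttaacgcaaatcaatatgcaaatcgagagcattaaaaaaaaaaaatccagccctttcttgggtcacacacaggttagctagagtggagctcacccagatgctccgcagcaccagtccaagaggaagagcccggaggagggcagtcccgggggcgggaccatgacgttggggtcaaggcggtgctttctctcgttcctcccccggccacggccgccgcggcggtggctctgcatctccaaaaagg
Counted on both strands, the core occurred 2 times each in the windows of Slc16a3 and Slc2a1 and 1 time in that of Egln3. It occurred 7 times in the Ldha window shown, where the palindrome CACGTG counts on each strand. Ldha has 2 windows, and the one with more core matches is shown. The other held the core 2 times and ACGTG 0 times.

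The fusion protein comparisons ask what the protein did to the sorted cells, alone and after radiation. Bnip3l, which encodes an outer mitochondrial membrane receptor for mitophagy (chromosome 14, 66985239 to 67008877), was the member most apart. It had 1215, 1350 and 1432 normalized counts in fusion protein libraries 1, 2 and 3 and 970, 1566 and 1233 in combined libraries, against 1575, 1604 and 2229 in 20 Gy libraries and 1646, 1762 and 1938 in untreated libraries. All 6 libraries with the fusion protein were below all 6 without it, a separation in either direction found in 3.05% of all genes. The gap was small, with 1566 counts in combined library 2 and 1575 in 20 Gy library 1. The main effect was a log2 difference of −0.47 ± 0.14 (SE) that did not pass in limma (adjusted p = 0.118) or in edgeR (adjusted p = 0.119), and passed in DESeq2 (adjusted p = 0.0449). Over all alternatives the limma, edgeR or DESeq2 adjusted p ran between 0.0178 and 0.343 and the log2 difference between −0.56 and −0.38. Pairs of the same library number add nothing here, since all 6 libraries with the fusion protein were below all 6 without it.

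By single comparison, Bnip3l had a log2 difference of −0.42 ± 0.20 for fusion protein against untreated (limma adjusted p = 0.637), −0.53 ± 0.20 for combined against untreated (limma adjusted p = 0.306) and −0.53 ± 0.20 for combined against 20 Gy (limma adjusted p = 0.423). Its groups did not overlap in these 3 comparisons, where 10.6%, 17.8% and 17.9% of all genes had separate groups. No other member had separate groups in any of the 5 comparisons between groups or in the 2 main effects, against 11.5% of genes for 20 Gy against untreated, 8.29% for combined against fusion protein and 0.52% for the main effect of radiation. The sum over markers of conventional dendritic cells, 14 of 14 measured, was also lower with the fusion protein. It was 58810 to 102000 normalized counts in the fusion protein group and 86870 to 98400 in the combined group. The 20 Gy group had 149900 to 189600 and the untreated group 109900 to 179200. Not every single marker separated: Itgax had 7320 normalized counts in fusion protein library 1 and 4054 in untreated library 2. Bnip3l is known for clearing mitochondria from maturing red cells. The red cell markers, 7 of 8 in the table and 6 past the filter, summed to 3.04 to 408 in the fusion protein group, 101.5 to 421 in the combined group, 2085 to 2998 in the 20 Gy group and 6.24 to 823 in the untreated group. Other lists separated the same 6 libraries from the other 6. The NK cell markers, 8 of 8 measured, summed to 49190 to 161300 in the fusion protein group and 56120 to 90010 in the combined group, against 12480 to 23560 in the 20 Gy group and 22030 to 30360 in the untreated group. The type I interferon response genes, 15 of 15 measured, summed to 52410 to 96210 in the fusion protein group and 80470 to 142000 in the combined group, against 7345 to 19610 in the 20 Gy group and 7054 to 7504 in the untreated group. The part of any of these in the Bnip3l values was not tested.

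Egln3, an oxygen-sensing hydroxylase that is itself a HIF target (chromosome 12, 54178981 to 54203860), had 9.5, 41.5 and 79.1 normalized counts in fusion protein libraries 1, 2 and 3 and 15.3, 40.9 and 87.2 in combined libraries, against 33.4, 63.2 and 654 in 20 Gy libraries and 27.7, 91.1 and 123 in untreated libraries. Each fusion protein library was below the untreated library of the same number, in 3 of 3 pairs. Combined libraries were below 20 Gy libraries of the same number too, but that comparison was not taken as paired. Combined libraries 2 and 3 lay above 20 Gy library 1, and the ranges overlapped widely. The main effect was a log2 difference of −1.30 ± 0.79 (limma adjusted p = 0.525). Without the 4 libraries numbered 3 it was −1.07 (limma adjusted p = 0.455), and without 20 Gy library 3 alone it was −0.66. Egln1, the main HIF hydroxylase, had a log2 difference of 0.02 ± 0.36 and Hif1a of 0.04 ± 0.42 in the same effect, each well below its SE.

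The enzymes from aldolase to pyruvate kinase had mostly higher values with the fusion protein alone, and none passed. In fusion protein against untreated 7 of 8 had a positive log2 difference, with a median of 0.56. They ran between −0.49 for Aldoc and 0.78 for Tpi1, and 0 of 8 passed. Tpi1 had 582, 638 and 3038 normalized counts with the fusion protein and 357, 537 and 1149 without treatment, a log2 difference of 0.78 ± 0.85 (limma adjusted p = 0.966). Gapdh had 4698, 5285 and 18915 normalized counts with the fusion protein and 2762.5, 4891 and 11601 without treatment, a log2 difference of 0.53 ± 0.74 (limma adjusted p = 0.985). In both genes each fusion protein library was above the untreated library of the same number, and the ranges overlapped. Library 3 of the untreated group exceeded libraries 1 and 2 of the fusion protein group in both. For Gapdh untreated library 2 also exceeded fusion protein library 1. With the library number as a block the limma adjusted p was 0.182 for Tpi1 and 0.378 for Gapdh. Over all 33 genes 24 had a positive difference and 9 a negative one, with a median of 0.18 against −0.005 over all genes. Without fusion protein library 3 there were 10 positive and 23 negative, with a median of −0.20. Without untreated library 3 there were 28 and 5, with a median of 0.58. Library 3 was high in both groups, so leaving it out of 1 group unbalances them and cannot decide the direction. The same holds below wherever library 3 is left out of 1 group. In pairs of the same number, 3 of 3 were higher with the fusion protein for Aldoa, Tpi1, Gapdh, Pgk1, Pgam1, Eno1 and Pkm. For Aldoc it was 1 of 3.

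In combined against 20 Gy, 13 of the 33 were positive and 20 negative, with a median of −0.11 against −0.02 over all genes. This split did not hold across methods. By edgeR and by DESeq2 it was 2 positive and 31 negative, with medians of −0.39 and −0.40. Under TMM scaling it was 19 positive and 14 negative with a median of 0.05, while the median of all genes moved to 0.13. Leaving out 20 Gy library 3 gave 26 positive and 7 negative, leaving out combined library 3 gave 3 and 30, and without the 4 libraries numbered 3 it was 24 and 9. In the main effect of the fusion protein 21 were positive and 12 negative, with a median of 0.05; by edgeR these were 14 and 19, without fusion protein library 3 they were 8 and 25, and without 20 Gy library 3 they were 27 and 6.

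Pfkp, the platelet-type phosphofructokinase (chromosome 13, 6579768 to 6648777), had 4520.5, 3758 and 7778 normalized counts in fusion protein libraries 1, 2 and 3 and 4691, 4868 and 6623 in the combined group, against 2171, 2344 and 8608 in the 20 Gy group and 2266, 3150.3 and 6551.5 in the untreated group. In libraries 1 and 2 the values with the fusion protein, 3758 to 4868, lay above those without it, 2171 to 3150.3, and in library 3 the 20 Gy value was the highest of all. The main effect of the fusion protein was a log2 difference of 0.55 ± 0.37 with all libraries (limma adjusted p = 0.59). Without the 4 libraries numbered 3 it was 0.85 and passed (limma adjusted p = 0.0234), the only member that did, where 2.93% of all genes tested passed. In that smaller fit 10 of 33 members and 16.6% of all genes had an unadjusted p under 0.05, among them Ldha, Aldoa, Pkm, Gapdh, Tpi1, Pgam1 and Hk1. The opposite strand of Pfkp's exons holds part of Pitrm1, whose reads came to 13.1% of those of Pfkp. No source used here states how the authors' counting used strand.

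**Figure D4:**
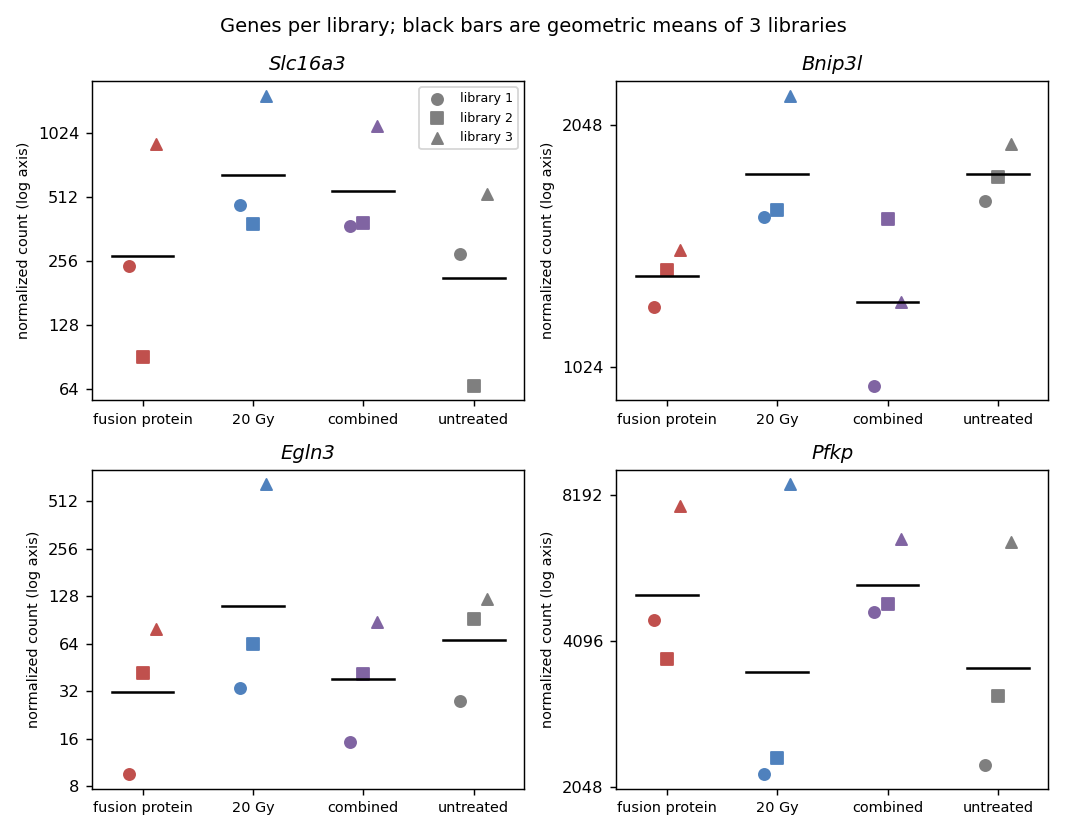
Normalized counts (log axis) of Slc16a3, Bnip3l, Egln3 and Pfkp in each library by group, with circles, squares and triangles for libraries 1, 2 and 3 and black bars for geometric means. Bnip3l is below 1575 in all fusion protein and combined libraries, and the triangles are highest in every group for the other 3 genes.

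The radiation comparisons ask what 20 Gy left in the sorted cells 7 days later. Slc16a3, the lactate exporter of strongly glycolytic cells (chromosome 11, 120948480 to 120960868), had the largest difference of the 33. It had 472, 384 and 1539 normalized counts in 20 Gy libraries 1, 2 and 3 and 374, 388 and 1108 in combined libraries, against 241, 90.2 and 914 in fusion protein libraries and 275, 66.2 and 527 in untreated libraries. Each irradiated library was above the unirradiated library of the same number and the same fusion protein status, in 6 of 6 pairs, by 0.28 to 2.52 on the log2 scale. The ranges overlapped, since library 3 of the unirradiated groups exceeded libraries 1 and 2 of the irradiated ones. The log2 difference was 1.61 ± 0.92 for 20 Gy against untreated (limma adjusted p = 0.737), 1.35 ± 0.92 for combined against untreated (limma adjusted p = 0.623) and 1.00 ± 0.92 for combined against fusion protein (limma adjusted p = 1.0). The main effect of radiation was 1.31 ± 0.65 (limma adjusted p = 0.506). The size depended on single libraries. Without untreated library 2, which had the lowest value, the first 2 differences were 0.78 and 0.51, and without untreated library 3 they were 2.27 and 2.00. Combined against fusion protein was 0.21 without fusion protein library 2 and 1.88 without fusion protein library 3, and the main effect was 0.89 to 1.74 with any 1 library left out.

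With the library number fitted as a block, Slc16a3 alone of the 33 passed in the main effect of radiation (limma adjusted p = 0.0217) and in combined against untreated (limma adjusted p = 0.0387). It missed in 20 Gy against untreated (limma adjusted p = 0.0679). The block raised the share of all genes called to 4.46%, 7.73% and 0.383% in these 3 comparisons. The block also raised that share to 3.29% in fusion protein against untreated and left it at 0.0% in combined against fusion protein, with 0 members passing in either. Without the 4 libraries numbered 3 its main effect was 1.51 (limma adjusted p = 0.470). The neutrophil markers, 11 of 11 measured, summed to 3848 to 6173 normalized counts in the 20 Gy group and 2059 to 6973 in the combined group, against 439.7 to 4953 in the fusion protein group and 147 to 2352 in the untreated group. The macrophage markers, 12 of 12 measured, summed to 14630 to 23010 in the 20 Gy group and 8978 to 14830 in the combined group, against 8746 to 10540 in the fusion protein group and 4814 to 15690 in the untreated group. The part of these cells in the Slc16a3 values was not tested. In the main effect of radiation the importing relative Slc16a1 went the other way, with a log2 difference of −0.34 ± 0.64. Slc2a1 had −0.18 ± 0.69, and both were smaller than their SE without the block. With the block the SE was 0.24 for Slc16a1 (limma adjusted p = 0.44) and 0.23 for Slc2a1 (limma adjusted p = 0.697).

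Pfkfb4 (chromosome 9, 108991778 to 109032228) had 554, 513 and 280 normalized counts in 20 Gy libraries 1, 2 and 3 and 423, 171 and 324 in combined libraries, against 272, 221 and 141 in fusion protein libraries and 413, 107 and 188 in untreated libraries. It was higher with radiation in 5 of 6 pairs of the same number, and the ranges overlapped. The main effect of radiation was a log2 difference of 0.79 ± 0.35 (limma adjusted p = 0.473, unadjusted p = 0.0476). With the library number as a block its SE was 0.25 (limma adjusted p = 0.0891). The 20 Gy libraries 1 and 2, its highest values, were also those with the most reads in the receptor genes taken by name. The part of those reads in this was not tested.

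All 8 enzymes from aldolase to pyruvate kinase had a positive difference in 20 Gy against untreated, by 0.19 to 0.54 on the log2 scale, with 0 passing. All 8 had a negative difference in combined against fusion protein, by −0.33 to −0.14, with 0 passing, and in the main effect of radiation their median was 0.02. Over all 33 genes, 25 were positive and 8 negative in 20 Gy against untreated, with a median of 0.28 against 0.04 over all genes. In combined against untreated these were 22 and 11, with a median of 0.26 against 0.02, and in combined against fusion protein 12 and 21, with a median of −0.12 against 0.03. The 3 comparisons against untreated share their untreated libraries. None of these splits was steady when libraries were left out, and leaving library 3 out of 1 group unbalances the comparison. Without 20 Gy library 3 that for 20 Gy against untreated was 5 positive and 28 negative, with a median of −0.42, and without untreated library 1 it was 14 and 19. It was 13 and 20 without the 4 libraries numbered 3 and 7 and 26 with the melanoma marker level as a covariate. In a separate fit with the receptor gene level as the only covariate it was 33 and 0. That for combined against untreated was 16 and 17 without combined library 3 and 14 and 19 without untreated library 1, with medians of −0.04 and −0.05. That for combined against fusion protein was 28 and 5 without fusion protein library 3, with a median of 0.42, and 23 and 10 without combined library 1.

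**Figure D5:**
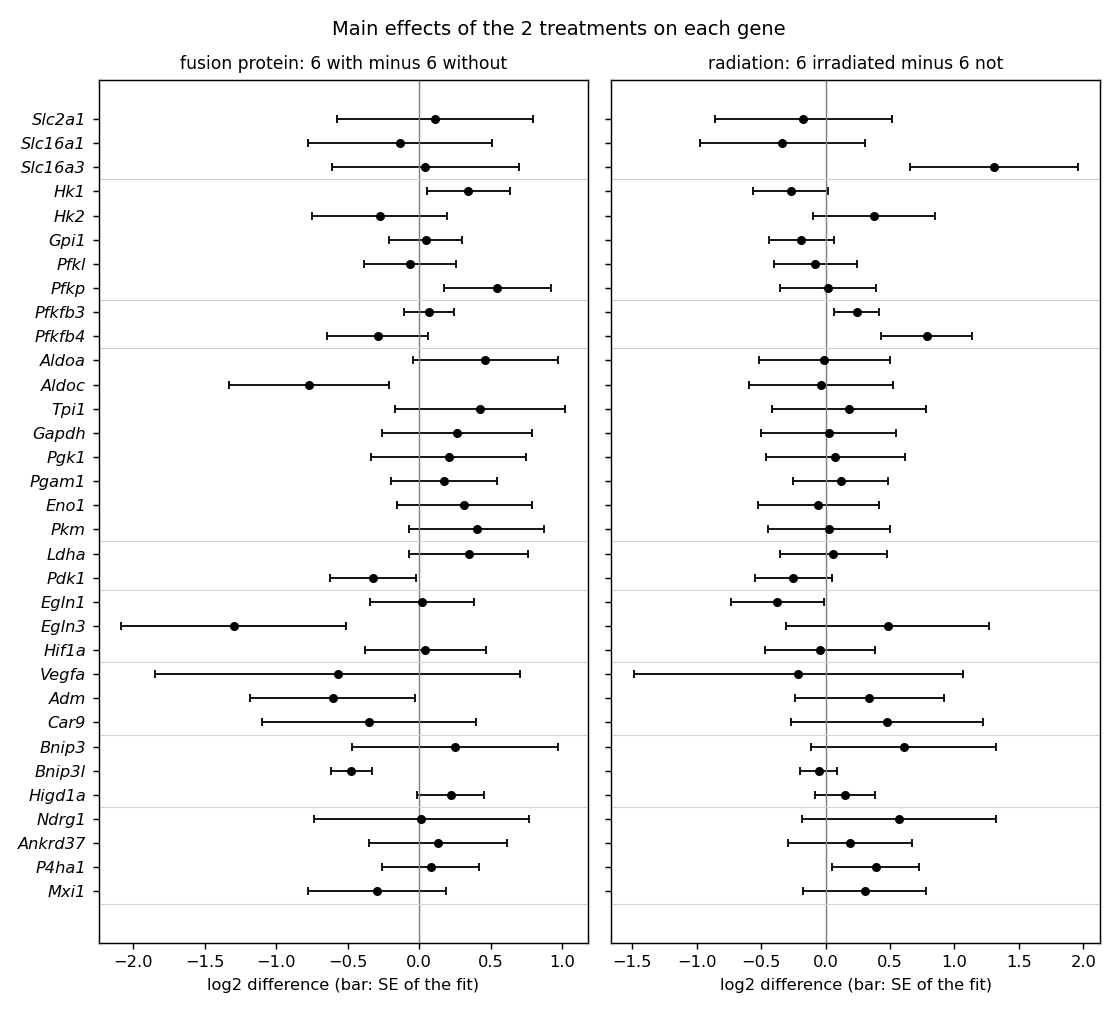
Log2 differences of the 33 genes for the main effect of the fusion protein (left, 6 libraries with it minus 6 without) and of radiation (right, 6 irradiated minus 6 not), with bars for the SE of the limma fit and genes ordered by role. Bnip3l, at −0.47 ± 0.14, and Slc16a3, at 1.31 ± 0.65, stand farthest from 0 relative to their bars or in size.

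The interaction asks whether the fusion protein's difference was the same with and without radiation. Of the 33 genes 28 had a negative log2 interaction and 5 a positive one, with a median of −0.43 against 0.00 over all genes, and 0 passed in limma, edgeR or DESeq2. They ran between −1.28 ± 1.49 for Car9 and 0.93 for Vegfa. Car9 had 21.2, 8.1 and 129.6 normalized counts in fusion protein libraries 1, 2 and 3, 36.1, 18.2 and 206 after 20 Gy, 30.6, 16.5 and 32.8 in the combined group and 48.7, 8.7 and 29.0 in the untreated group. Library 3 of the combined group lacked the high value seen in library 3 of the fusion protein and 20 Gy groups. Without the 4 libraries numbered 3 the interaction of Car9 was 0.45 and the split of the 33 genes turned to 7 negative and 26 positive, with a median of 0.23. Leaving out a single library turned it too, to 12 negative and 21 positive without fusion protein library 3 and to 5 negative and 28 positive without 20 Gy library 3. Car9 has an antisense neighbour, Gm12454, whose reads came to 82.1% of its own, so the 2 may not be separable.

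None of the remaining members passed in these limma comparisons. Among HIF targets, P4ha1, a collagen prolyl hydroxylase, had a main effect of radiation of 0.39 ± 0.34 on the log2 scale, Bnip3 of 0.61 ± 0.72, Ndrg1 of 0.57 ± 0.75, Mxi1, a MYC antagonist, of 0.30 ± 0.48, and Ankrd37, a small ankyrin-repeat protein, of 0.19 ± 0.48. With the library number as a block the SE was 0.125 for P4ha1, 0.29 for Bnip3, 0.24 for Ndrg1, 0.17 for Mxi1 and 0.28 for Ankrd37. The limma adjusted p with the block was 0.0938 for P4ha1 and above that for the others. Adm had a main effect of the fusion protein of −0.61 ± 0.58 and Higd1a, a mitochondrial respiratory protein, of 0.22 ± 0.23. Upstream in glycolysis the fusion protein's main effect was 0.34 ± 0.29 for Hk1, −0.28 ± 0.47 for Hk2, 0.05 ± 0.26 for Gpi1, the glucose phosphate isomerase, and −0.07 ± 0.32 for Pfkl, the liver-type phosphofructokinase. Ankrd37 lies over part of Ufsp2 on the opposite strand, which had 5050 reads against its 757, so its counts are uncertain.

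Other genes of the same pathways were not called either in limma without the block, but some were called with it. Of 22 other genes of glycolysis and pyruvate use, 11 regulators of HIF and 34 other genes of the hypoxia response that passed the filter, 0 were called in any of the 8 limma comparisons. With the library number as a block, combined against untreated had 1 of 22 higher and 2 lower in the first list, 0 and 1 of 11 in the second and 5 and 4 of 34 in the third, where 7.73% of all genes were called. Pdk2, a relative of Pdk1, had a log2 difference of −2.10 ± 0.30 in that fit (limma with the block, adjusted p = 0.0015), and Slc2a3 had −0.72 ± 0.15 (limma with the block, adjusted p = 0.0144). Pdk2 had 40.5, 48.8 and 18.1 normalized counts in combined libraries 1, 2 and 3 and 150.5, 182 and 111 in untreated libraries, with no overlap. Hk3, the hexokinase of myeloid cells, had a log2 difference of 1.67 ± 0.26 in the same fit (limma with the block, adjusted p = 0.00256), with 749.7, 499 and 1420 normalized counts in combined libraries 1, 2 and 3 and 389, 101 and 419 in the untreated group. Siah2, a ligase that removes HIF hydroxylases, had −0.92 ± 0.23 (limma with the block, adjusted p = 0.0299). Nos2, the inducible nitric oxide synthase, had 4.58 ± 0.79 (limma with the block, adjusted p = 0.00508), with 18.0, 160.4 and 501 normalized counts in combined libraries 1, 2 and 3 and 0.0, 5.0 and 17.6 in untreated libraries. Plin2, a lipid droplet coat protein, had 2.35 ± 0.43 (limma with the block, adjusted p = 0.00698). Without the block the limma adjusted p was 0.092 for Pdk2, 0.127 for Slc2a3, 0.201 for Plin2, 0.307 for Hk3 and 0.378 for Siah2, and Nos2 missed the threshold too.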

How the data were processed

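RNA of sorted cells was sequenced as 100-base read pairs in 12 libraries. Per the submitters' processing notes, FastQC, Trimmomatic, STAR, featureCounts and DESeq2 were used with build mm10 (GRCm38); no version or setting is stated there. The signal values that the authors deposited are counts normalized by DESeq2, made from read counts and a size factor per library. Reads recovered from them were whole within 0.001 in 100% of values. Symbols and gene models came from GENCODE release 21 for mouse (M21), which matched 55141 of 55401 genes.

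A total of 18274 genes, each with 10 or more normalized counts in 3 or more libraries, were fitted in limma 3.58.1 (R 4.3.3) on log2 of the normalized count plus 1, with all 12 libraries in 4 groups, a variance trend over expression level, and degrees of freedom of 8 (residual) and 3.313 (prior). All tests are two-sided, with Benjamini-Hochberg adjustment over all tested genes and a threshold of 0.05. The ± after a log2 difference is the SE of the fit. Levels per kb are normalized counts over the exon length of the gene model. Alternatives were edgeR 4.0.16 and DESeq2 1.42.0 on the recovered reads, TMM scaling, pseudocounts of 0.5 and 10, no filter or a filter at 50, only the libraries compared, the replicate block, marker and receptor levels as covariates, and libraries left out. The scripts were tested on simulated data. For fusion protein against untreated, limma recovered 3 of 63 genes with a true log2 change of 1 and 30 of 63 with a change of 2. For 20 Gy against untreated it recovered 1 of 63 and 23 of 66. A count of 0 called members therefore does not show that these genes were unchanged.

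The labels number the libraries 1 to 3 in each group without saying what the number marks. Deviations from the group means were correlated between same-numbered libraries. Against untreated, r was between 0.473 and 0.621 for the fusion protein group, between 0.156 and 0.496 for the 20 Gy group and between 0.334 and 0.389 for the combined group, and it was between 0.41 and 0.484 for combined against fusion protein. These comparisons and the main effect of radiation, built from 2 of them, were therefore taken as paired from the data. For combined against 20 Gy r was between 0.01 and 0.505, so that comparison, the main effect of the fusion protein and the interaction were not. The pairing was not clear for all numbers: 20 Gy library 2 had r = 0.351 with untreated library 1 and 0.156 with untreated library 2. Block results for 20 Gy against untreated and for the main effect of radiation are less sure for that reason. The block was fitted over all 12 libraries at once. The same doubt therefore enters the spread behind every other block result, those for combined against untreated among them.

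The 33 genes and the other lists were chosen with earlier results of these data known. All 33 could be named, and of each other list up to 4 genes of smallest p per comparison, beside relatives and copies of the 33. Itgax, Ptprc and Bhlhe40 were added.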

Additional observations from a re-analysis of the deposited data

How the results depend on the processing

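The count of 0 called members held in all 8 comparisons under TMM scaling, edgeR without a block, other pseudocounts and filters, and with each library left out in turn. It did not hold under the following, whose cause was not tested. With the replicate block, limma called 1 in combined against untreated (Slc16a3), 2 in the main effect of the fusion protein (Egln3, adjusted p = 0.0318, and Bnip3l, adjusted p = 0.0178) and 1 in that of radiation (Slc16a3). In the main effect of the fusion protein the block called 10.9% of all genes in limma and 9.98% in edgeR. The block in edgeR, chosen after seeing the data, called 2 (Egln3 and Bnip3l), 1 (Slc16a3) in the main effects of the fusion protein and of radiation, and 0 in combined against untreated. Of all genes the block in edgeR called 2.98% in the main effect of radiation and 6.64% in combined against untreated. At these shares the counts of 1 and 0 called members are not above the background. In the main effect of the fusion protein DESeq2 called 1 (Bnip3l; 7.33% of all genes), the receptor level as a covariate 1 (Bnip3l; 2.9%), the melanoma level as a covariate 4 (Ldha, Aldoc, Pfkp and Bnip3l; 9.07%), and the fit without the 4 libraries numbered 3 called 1 (Pfkp; 2.93%). With the melanoma level as a covariate 2 were called in combined against untreated (Aldoc and Vegfa; 5.08% of all genes) and 1 in combined against 20 Gy (Pfkp; 3.9%), and the signs in the main effect of radiation were 4 positive and 29 negative, against 20 and 13. Under TMM scaling these were 17 and 16, and without 20 Gy library 3 they were 6 and 27. The interaction of Car9 turned to 0.45 without the libraries numbered 3. Leaving out the 3 libraries with most receptor reads moved the median member to 1.70 in 20 Gy against untreated, −1.08 in combined against 20 Gy and −1.52 in the interaction, which then rest on 1 library of the 20 Gy group, assumed to vary like the other groups. The excess of library 3 had members' medians of 0.45 to 1.31 when reads were scaled by library total alone. Few libraries and their spread, wider than most differences, limit what could be called.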
